A study of Mus musculus with 6 samples.

Results

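The 38 genes described here encode the core machinery of autophagy and its cargo receptors. They were chosen by gene symbol from a named list. All 38 were found among the 16111 genes with an identifier in the deposited normalised table, and all 38 had enough reads to be tested. Autophagy encloses part of the cytoplasm in a double membrane, the autophagosome, which then fuses with lysosomes so that its content is degraded. A protein kinase complex around ULK1 starts the process, and a lipid kinase complex around VPS34 marks the site of membrane growth. A ubiquitin-like conjugation system then attaches ATG8 proteins such as LC3 to the membrane, where cargo receptors such as p62 bind them. In macrophages the same conjugation enzymes also act on phagosomes that have taken up microbes or dying cells.

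Expression was measured by RNA-seq in macrophages grown from fetal livers of C57BL/6 mice, with 3 wild-type cultures and 3 cultures lacking Ahrr (AhRR-/-). Ahrr encodes a protein that represses the aryl hydrocarbon receptor (AhR), which controls transcription on binding its ligands, and the comparison asks what changes without the repressor. Livers were taken at E13.5 and the cells were cultured for 5 weeks in RPMI with 10% fetal calf serum and 2% GM-CSF, a growth factor for macrophages. This medium was common to both genotypes, and only the non-adherent cells were collected. The knockout allele is not described further in the labels, nor are the sex and litter of the fetuses. The labels number the mice 1 to 3 within each genotype, without saying how cultures were derived from them, so the p-values measure the spread between these cultures.

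Libraries held between 3556106 and 41668336 counts, both of these in the Ahrr-deficient group (replicates 1 and 2), a range of 11.72-fold. Levels are given as scaled CPM, which is CPM computed after each library total was multiplied by its TMM factor, a correction that lay between 0.904 and 1.04. Every one of the 38 genes had at least 22 counts in the smallest library. Ahrr itself had 4.6, 4.74 and 5.21 scaled CPM in wild-type replicates 1 to 3 and 2.23, 2.47 and 1.18 in the Ahrr-deficient ones. Its log2 fold change was -1.21 (SE 0.26, adjusted p 0.0151 by edgeR), with adjusted p of 0.0631 without wild-type replicate 1 and 0.0502 without wild-type replicate 3. Ahrr-deficient replicate 1 stood apart on the second principal component, which held 19.7% of the variance, at -35.1 against 2.5 to 12.9 in the other libraries. Wild-type replicate 2 had the lowest scaling factor and differed most from the other wild-type libraries. On the first principal component it lay at -35.5, against -19 and -21.7 in wild-type replicates 1 and 3. All 9 macrophage markers were in the table, with a summed level of 23962 to 26723 scaled CPM in wild-type and 15208 to 23029 in Ahrr-deficient libraries. All 6 markers of alveolar macrophages were present too, at 35764 to 38823 against 33329 to 35900. Of markers of other cells, none of 6 for mast cells or 5 for lymphoid cells reached a total of 10 counts. The erythroid list had 3 of 7 in the table, summing to 14.9 to 22.5 scaled CPM in wild-type and 2.75 to 4.82 in Ahrr-deficient cells. The dendritic cell list had 3 of 5, at 56.3 to 67.8 against 70.0 to 91.3, while Flt3 and Ccr7 were not in the table. Hepatocyte, neutrophil, megakaryocyte, endothelial and stromal markers summed to at most 3.01 scaled CPM. Whether these shifts in marker levels contribute to the results below was not tested.

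Of the 38 autophagy genes, 6 (15.8%) had an adjusted p under 0.05 by edgeR, the threshold used throughout, against 19.6% of all 11408 tested genes. Lower in Ahrr-deficient cells were Ulk1, Calcoco1, Atg2a and Map1lc3b, 4 genes, where 9.95% of all tested genes were lower. Atg3 and Atg5 were higher, 2 genes, against 9.62% of all tested genes. The share called was thus not above that of the transcriptome as a whole. Their changes were small, from a fall of 0.72 to a rise of 0.29 on the log2 scale. The median log2 fold change was -0.06 over the 38 genes and 0.01 over all tested genes. Before adjustment 11 of the 38 had a p under 0.05. In 12 of the 38 (31.6%) the levels of the 2 groups did not overlap, against 38.8% of all tested genes. Because whole cultures were measured, fewer cells with a transcript and less of it per cell cannot be told apart.

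**Figure D1:**
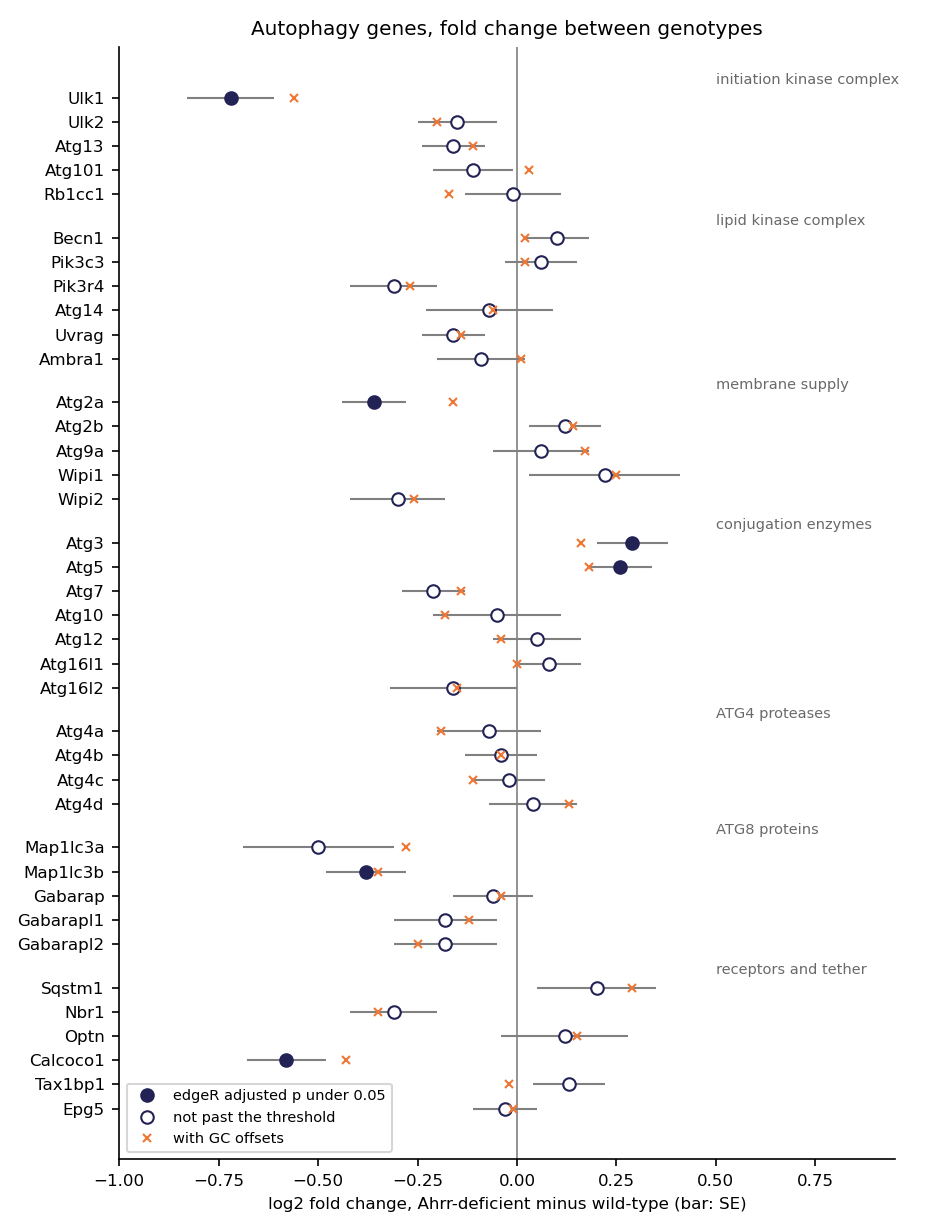
Log2 fold change of each of the 38 autophagy genes (x axis, Ahrr-deficient minus wild-type, 3 libraries each; bars, SE), grouped by role, with crosses for the same value after offsets for GC content. The 4 filled points left of 0 are Ulk1, Calcoco1, Atg2a and Map1lc3b, and the 2 filled points right of it are Atg3 and Atg5.

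Sequences upstream of Ulk1, Calcoco1, Atg3 and Atg5 are shown with the motifs searched in them. Ulk1 and Calcoco1 passed the threshold as lower under every alternative setting, and Atg3 and Atg5 were the genes called higher. Windows of 300 bases around RefSeq starts (250 before, 50 after; GRCm38.p6) were at hand for 31 of the 38 genes. They were searched on both strands for GCGTG, the core bound by AhR with its partner ARNT, and for CACGTG, the E-box bound by MITF and TFE factors. The shown stretches end before the first annotated exon and run 5′ to 3′ on the gene's strand, with matches of either motif in capitals. Distances are counted to the RefSeq start. The first pair is from genes that were lower, with the GCGTG core on the other strand (CACGC), 32 bases upstream of the start in Ulk1 (chr5:110810098-110810331, minus strand) and 85 bases in Calcoco1 (chr15:102722179-102722428, minus strand).
Ulk1: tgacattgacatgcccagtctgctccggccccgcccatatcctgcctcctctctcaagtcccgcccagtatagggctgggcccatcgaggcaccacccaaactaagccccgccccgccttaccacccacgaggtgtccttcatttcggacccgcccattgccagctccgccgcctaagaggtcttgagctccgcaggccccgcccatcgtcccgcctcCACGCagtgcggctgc
Calcoco1: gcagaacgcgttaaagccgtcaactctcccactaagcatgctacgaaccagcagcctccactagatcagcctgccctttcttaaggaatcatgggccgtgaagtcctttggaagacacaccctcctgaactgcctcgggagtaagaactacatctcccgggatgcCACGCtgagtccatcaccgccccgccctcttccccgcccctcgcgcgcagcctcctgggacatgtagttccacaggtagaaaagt
The second pair is from the genes that were higher, with CACGTG 94 and 71 bases upstream in Atg3 (chr16:45158707-45158784, plus strand) and 14 bases upstream in Atg5 (chr10:44268089-44268338, plus strand). The RefSeq start of Atg3 is at 45158829. Its window also holds exon sequence of another gene, Slc35a5, so the stretch is not particular to Atg3. Atg5 also holds the GCGTG core on the other strand, 76 bases upstream.
Atg3: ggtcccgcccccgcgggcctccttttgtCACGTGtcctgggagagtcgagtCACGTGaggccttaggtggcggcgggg
Atg5: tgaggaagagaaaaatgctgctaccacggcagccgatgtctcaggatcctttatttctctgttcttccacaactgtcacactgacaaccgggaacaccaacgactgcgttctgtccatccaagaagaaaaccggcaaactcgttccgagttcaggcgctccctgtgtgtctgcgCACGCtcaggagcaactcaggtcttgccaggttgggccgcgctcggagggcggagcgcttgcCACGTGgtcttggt

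GCGTG was found in 22 of the 35 windows at hand, which belonged to 20 of the 31 genes. Ulk1, Calcoco1, Atg2a, Map1lc3b and Atg5 were among these genes, and the rest of them did not pass the threshold. It occurred in 32.4% of all 32851 windows and in 51.1% of the 11095 windows of tested genes. CACGTG was found in 4 of the 35 windows, those of Atg3, Atg5, Atg7 and Atg14, and in 7.15% of all windows or 10.3% of those of tested genes. The longer TCACGTGA, which contains CACGTG, was found for Atg3 alone, against 0.974% of all windows and 1.93% of those of tested genes. A letter match is a description and shows no binding. Of the 4 genes with CACGTG, Atg3 and Atg5 passed the threshold, while Atg7 and Atg14 had log2 fold changes of -0.21 and -0.07.

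Among the 5 genes of the initiation kinase complex, Ulk1, the kinase that starts autophagosome formation, fell and the other 4 did not pass the test. Ulk1 (ENSMUSG00000029512.11, chromosome 5, 110784488 to 110810097, minus strand) had 79.4, 78.7 and 78.0 scaled CPM in wild-type replicates 1 to 3 and 57.6, 42.3 and 46.7 in the Ahrr-deficient ones. The wild-type libraries were nearly equal, and every Ahrr-deficient library lay below them. Its mean was 78.7 ± 0.704 (SD, n = 3) against 48.9 ± 7.91 (SD, n = 3), which is a log2 fold change of -0.72 (SE 0.11; 95% interval -0.97 to -0.46; adjusted p 0.00519 by edgeR). The decrease, -39.2%, was the largest absolute change among the 38 genes. It passed the threshold in all 16 alternative settings of the processing, each left-out library included, with log2 fold changes of -0.84 to -0.55 and adjusted p between 2.29e-08 and 0.0386.

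Ulk2, the closest relative of Ulk1, had 51.5, 52.3 and 56.1 scaled CPM in wild-type and 56.0, 45.5 and 45.0 in Ahrr-deficient replicates 1 to 3, and the groups overlapped. Its log2 fold change was -0.15 (SE 0.10, adjusted p 0.349 by edgeR). Within each library, the ratio of Ulk1 to Ulk2 counts was 1.54, 1.5 and 1.39 in wild-type and 1.03, 0.929 and 1.04 in Ahrr-deficient cells, with no overlap. This is a comparison of 3 libraries with 3, in which the exact two-sided permutation p cannot fall below 0.1, the value it took here. It is 1 of 8 such ratios of related genes, formed after the values had been seen, and its Benjamini-Hochberg adjusted p over the 8 was 0.16. The 4 further ratios without overlap, given below, had the same p and adjusted p, and 3 ratios overlapped, those of Map1lc3a to Map1lc3b (exact permutation p 0.8), Gabarapl1 to Gabarap (0.5) and Atg16l2 to Atg16l1 (0.2). Atg13, which links the kinase to its scaffold, did not overlap between groups (59.1, 59.3 and 59.6 against 56.5, 50.9 and 52.5 scaled CPM), with a log2 fold change of -0.16 and an edgeR adjusted p of 0.183. Atg101, the partner of ATG13, and the scaffold gene Rb1cc1 (FIP200) had log2 fold changes of -0.11 and -0.01.

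None of the 6 genes of the lipid kinase complex passed the threshold. Becn1 encodes Beclin 1, the regulatory core of the complex, and had 63.6, 64.1 and 72.5 scaled CPM in wild-type and 71.6, 71.9 and 70.8 in Ahrr-deficient replicates. Its log2 fold change was 0.10 (SE 0.08, adjusted p 0.426 by edgeR), and the groups overlapped. The exons of Becn1 overlap those of Cntd1 on the other strand over 3104 of its 7065 merged exon bases. Because it is not given in the sources used here whether counting used strand, reads of the pair from this overlap cannot be told apart. Pik3r4, the gene of the VPS15 subunit, had 63.6, 63.4 and 60.2 scaled CPM in wild-type and 59.6, 45.0 and 48.9 in Ahrr-deficient replicates. Its groups did not overlap, by a narrow gap at Ahrr-deficient replicate 1, and its log2 fold change was -0.31 (SE 0.11, adjusted p 0.0766 by edgeR). Without Ahrr-deficient replicate 1 it was -0.42 with an adjusted p of 0.00558, in a range of 0.00558 to 0.24 over the alternative settings. With all libraries it passed in limma-voom alone, at -0.34 with an adjusted p of 0.0419. The catalytic subunit gene Pik3c3 (VPS34) had a log2 fold change of 0.06, and Atg14 and Uvrag, which direct the complex to autophagosome or endosome membranes, had -0.07 and -0.16. Uvrag overlaps a gene on the other strand over 1589 bases. Ambra1, a regulator of both kinase complexes, was at -0.09.

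Of the 5 genes for supply and marking of the growing membrane, Atg2a fell. Atg2a (ENSMUSG00000024773.14, chromosome 19, 6241668 to 6262335, plus strand) encodes a lipid transfer protein that feeds the membrane, and had 186, 184 and 171 scaled CPM in wild-type and 150, 132 and 140 in Ahrr-deficient replicates 1 to 3. The groups did not overlap. Its log2 fold change was -0.36 (SE 0.08; 95% interval -0.54 to -0.18; adjusted p 0.0173 by edgeR). With GC offsets it was -0.16 with an adjusted p of 0.341, in a range of 0.00287 to 0.341 over the alternative settings. The call was also lost without wild-type replicate 1 (adjusted p 0.102), wild-type replicate 2 (0.077), Ahrr-deficient replicate 2 (0.0573) or Ahrr-deficient replicate 3 (0.0533), with log2 fold changes of -0.37 to -0.32. Its paralog Atg2b had a log2 fold change of 0.12 (SE 0.09, adjusted p 0.367 by edgeR). The ratio of Atg2a to Atg2b counts was 3.09, 2.59 and 2.78 in wild-type and 2.13, 1.94 and 2.00 in Ahrr-deficient libraries, again without overlap and with an exact permutation p of 0.1.

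Wipi1 and Wipi2 encode proteins that read the lipid mark, and WIPI2 recruits the conjugation machinery. Wipi2 had 58.8, 72.7 and 55.4 scaled CPM in wild-type and 54.8, 49.2 and 47.8 in Ahrr-deficient replicates, with a log2 fold change of -0.30 (SE 0.12, adjusted p 0.096 by edgeR). The groups were separated by less than the spread of the wild-type libraries. Without Ahrr-deficient replicate 1 the value was -0.36 with an adjusted p of 0.043, the lowest in a range up to 0.283 over the alternative settings. Wipi1 overlapped between groups, with a log2 fold change of 0.22 (SE 0.19, adjusted p 0.439 by edgeR). The ratio of Wipi1 to Wipi2 counts rested on these opposite and uncalled differences, at 0.379, 0.275 and 0.240 in wild-type and 0.492, 0.403 and 0.451 in Ahrr-deficient cells (exact permutation p 0.1). Atg9a, which encodes the scramblase carried on vesicles, had a log2 fold change of 0.06. It shares 28.78% of its 75-base words with other genes and overlaps another gene model on the same strand over 1832 bases, so its counts are uncertain.

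Of the 7 conjugation genes, Atg3 and Atg5 passed the threshold as higher and the other 5 did not pass the test. Atg3 (ENSMUSG00000022663.3, chromosome 16, 45158785 to 45188538, plus strand) encodes the enzyme that transfers ATG8 proteins to lipid. It had 54.7, 57.1 and 56.2 scaled CPM in wild-type and 62.9, 74.3 and 66.6 in Ahrr-deficient replicates 1 to 3, with a log2 fold change of 0.29 (SE 0.09; 95% interval 0.09 to 0.49; adjusted p 0.0486 by edgeR). Atg5 (ENSMUSG00000038160.7, chromosome 10, 44268358 to 44364291, plus strand) encodes the acceptor of ATG12 in the complex that directs this transfer. It had 56.3, 60.9 and 57.6 against 70.7, 70.7 and 68.2 scaled CPM, giving a log2 fold change of 0.26 (SE 0.08; 95% interval 0.09 to 0.44; adjusted p 0.0441 by edgeR). Neither gene overlapped between the groups. Both calls lay close to the threshold: Atg3 passed it in 3 and Atg5 in 4 of the 16 alternative settings. With a single library left out both kept the call only without Ahrr-deficient replicate 1, and without any one of the other 5 libraries adjusted p was 0.111 to 0.201 for Atg3 and 0.0889 to 0.209 for Atg5. With GC offsets the log2 fold change was 0.16 for Atg3 (adjusted p 0.306) and 0.18 for Atg5 (adjusted p 0.0948), in ranges of 0.0146 to 0.421 and 0.0344 to 0.209.

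Atg7, the activating enzyme at the head of both conjugation arms, lay lower in the Ahrr-deficient libraries but did not pass the threshold. It had 209, 216 and 203 scaled CPM in wild-type and 182, 171 and 191 in Ahrr-deficient replicates, without overlap. Its log2 fold change was -0.21 (SE 0.08, adjusted p 0.0952 by edgeR). Without Ahrr-deficient replicate 1 the value was -0.22 with an adjusted p of 0.0478, the lowest in a range up to 0.314. Atg12, the ubiquitin-like partner of ATG5, and Atg10, the enzyme that joins them, had log2 fold changes of 0.05 and -0.05. Atg16l1, which places the complex on the membrane, was at 0.08 with 54.0, 58.3 and 55 against 59.9, 58.3 and 58.1 scaled CPM. Its paralog Atg16l2 was at -0.16 and had the lowest level per kb of the 38 genes.

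**Figure D2:**
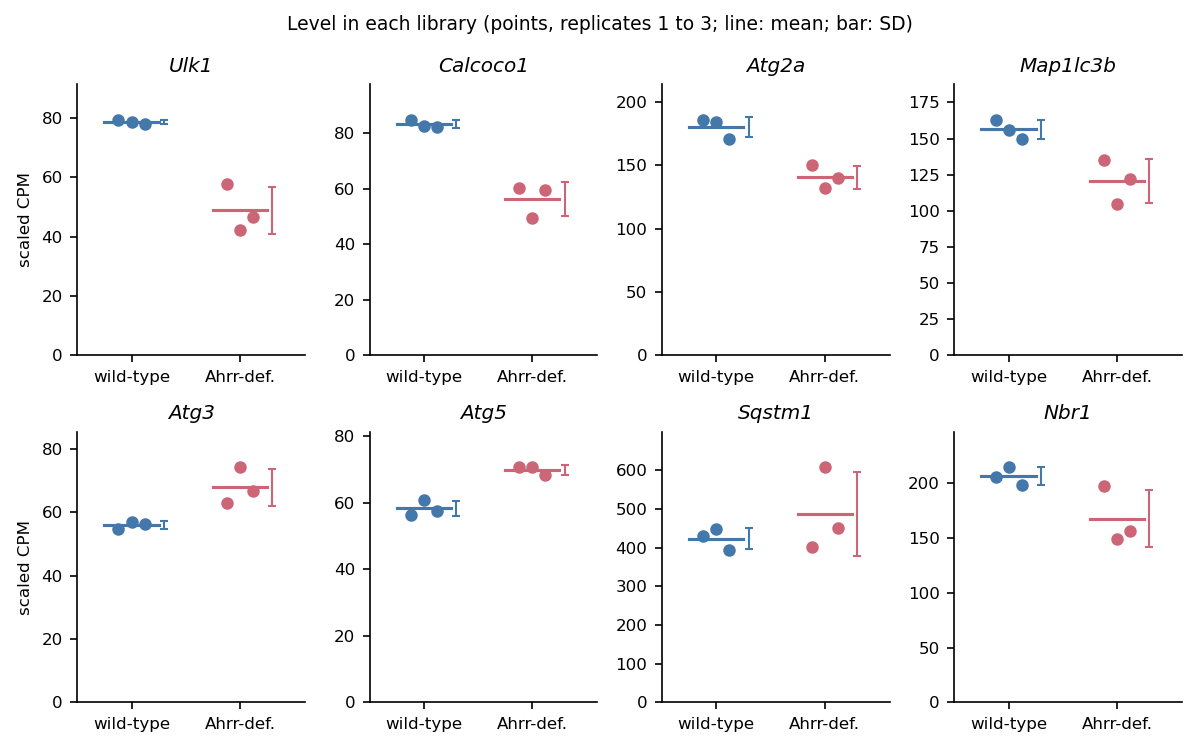
Scaled CPM (y axis, from 0) of 8 autophagy genes in the 3 wild-type and 3 Ahrr-deficient libraries (points, replicates 1 to 3 from left to right; lines, means; bars, SD). Ulk1 lies at 78.0 to 79.4 in wild-type and 42.3 to 57.6 in Ahrr-deficient cells, while the groups overlap for Sqstm1, with Ahrr-deficient replicate 2, at 608, far above the other libraries.

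The 4 ATG4 proteases, which process ATG8 proteins and remove them from membranes, did not differ detectably. Their log2 fold changes lay between -0.07 (Atg4a) and 0.04 (Atg4d), with edgeR adjusted p of 0.755 to 0.918. Of the summed level per kb of the 4 genes, Atg4c gave 45.0% in wild-type and 45.1% in Ahrr-deficient cells, Atg4b 28.0% and 27.6%, Atg4a 16.2% and 16.0%, and Atg4d 10.7% and 11.2%. The composition thus moved by less than the SD between libraries, which was 1.3 to 2.1 percentage points. Atg4a counts are uncertain because 41.34% of its 75-base words also occur elsewhere, chiefly in a pseudogene, and Atg4d overlaps Kri1 on the other strand over 1405 bases.

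Among the 5 ATG8 genes, whose products coat the autophagosome, Map1lc3b fell. It encodes LC3B, the usual marker of autophagosomes (ENSMUSG00000031812.16, chromosome 8, 121590361 to 121598760, plus strand). Its level was 163, 156 and 150 scaled CPM in wild-type and 135, 105 and 122 in Ahrr-deficient replicates 1 to 3, with no overlap. The log2 fold change was -0.38 (SE 0.10; 95% interval -0.61 to -0.16; adjusted p 0.0274 by edgeR). With GC offsets it was -0.35 with an adjusted p of 0.0443, in a range of 0.00281 to 0.13 over the alternative settings. With GC offsets and the replicate number as a block it was -0.34 and did not pass (adjusted p 0.053). When single libraries were left out, the call held only without Ahrr-deficient replicate 1. Without wild-type replicate 1, 2 or 3 the log2 fold change was -0.35, -0.39 or -0.42 with adjusted p of 0.13, 0.0873 and 0.0632, and without Ahrr-deficient replicate 2 or 3 it was -0.30 or -0.40 with 0.0767 and 0.0715.

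Map1lc3a, the gene of LC3A, had 31.8, 25.8 and 21.8 scaled CPM in wild-type and 13.1, 21.9 and 19.2 in Ahrr-deficient replicates, and the groups overlapped by a small margin. Its log2 fold change of -0.50 (SE 0.19) did not pass the threshold (adjusted p 0.089 by edgeR). Without a filter on low counts it was -0.49 and passed, with an adjusted p of 0.00371, in a range of 0.00371 to 0.426. Gabarap, a member of the other ATG8 subfamily, had the highest level per kb of all 38 genes. It had 453, 435 and 398 against 386, 428 and 418 scaled CPM, with overlap and a log2 fold change of -0.06 (SE 0.10, adjusted p 0.687 by edgeR). Gabarapl1 and Gabarapl2, of the same subfamily, were both at -0.18. Pseudogenes share 9.53% of the 75-base words of Gabarapl2, and 20.46% of those of Gabarapl1 lie in a gene on the other strand. Gabarap gave 67.7% ± 0.87 (SD, n = 3) of the summed level per kb of the 5 genes in wild-type and 71.4% ± 1.3 (SD, n = 3) in Ahrr-deficient cells. Map1lc3b gave 13.2% ± 0.55 and 11.2% ± 1.8, and Map1lc3a 5.05% ± 0.63 and 3.79% ± 0.80 (SD, n = 3 each). The ratio of Map1lc3b to Gabarap counts was 0.360, 0.358 and 0.377 in wild-type and 0.349, 0.246 and 0.291 in Ahrr-deficient libraries, a narrow separation at Ahrr-deficient replicate 1 (exact permutation p 0.1).

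Receptors tie cargo to ATG8 proteins, and of the 6 genes of receptors and the tether EPG5, Calcoco1 fell. CALCOCO1 acts as a receptor for the endoplasmic reticulum and the Golgi, and was first described as a coactivator of nuclear receptors that also binds AhR and ARNT. Calcoco1 (ENSMUSG00000023055.9, chromosome 15, 102706777 to 102722178, minus strand) had 84.9, 82.5 and 82.3 scaled CPM in wild-type and 60.4, 49.4 and 59.6 in Ahrr-deficient replicates 1 to 3. The lowest wild-type library lay well above the highest Ahrr-deficient one. The means were 83.2 ± 1.44 and 56.5 ± 6.12 (SD, n = 3 each), a change of -32.9%. The log2 fold change of -0.58 (SE 0.10; 95% interval -0.79 to -0.36; adjusted p 0.00631 by edgeR) passed the threshold in all 16 alternative settings, from -0.70 to -0.41 with adjusted p between 1.04e-05 and 0.0469. Tax1bp1, a related receptor, did not pass at 0.13 (SE 0.09, adjusted p 0.292 by edgeR). The ratio of Calcoco1 to Tax1bp1 counts was 0.413, 0.383 and 0.414 in wild-type and 0.251, 0.215 and 0.283 in Ahrr-deficient libraries (exact permutation p 0.1).

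Sqstm1 encodes p62, the best-known receptor, and its wild-type libraries had 429, 447 and 394 scaled CPM against 401, 608 and 451 in the Ahrr-deficient ones. Only Ahrr-deficient replicate 2 was far above the wild-type range. The log2 fold change was 0.20 (SE 0.15, adjusted p 0.372 by edgeR) and 0.00 without that replicate. Mrnip overlaps Sqstm1 on the other strand over 580 bases. Nbr1, a receptor that works together with p62, had 206, 215 and 199 scaled CPM in wild-type and 198, 149 and 157 in Ahrr-deficient replicates. Its groups were adjacent at Ahrr-deficient replicate 1, and its log2 fold change was -0.31 (SE 0.11, adjusted p 0.0827 by edgeR). Without Ahrr-deficient replicate 1 Nbr1 was at -0.44 with an adjusted p of 0.00213, and with GC offsets at -0.35 with 0.0489, in a range of 0.00213 to 0.224. It also passed without a filter on low counts, at -0.31 with an adjusted p of 0.0415. Optn, a receptor for mitochondria and bacteria, and the tether gene Epg5 were at 0.12 and -0.03.

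The 32 genes that did not pass the threshold had log2 fold changes between -0.50 and 0.22 and edgeR adjusted p between 0.0766 and 0.96. For 25 of them the 95% interval lay within 0.5 on either side of 0. Of the 32, 6 did not overlap between genotypes, namely Atg13, Pik3r4, Uvrag, Wipi2, Atg7 and Nbr1, where 38.8% of all tested genes, called ones included, did not. Without Ahrr-deficient replicate 1, 10 of the 38 genes (26.3%) passed the threshold: the 6 above and, all lower, Pik3r4, Wipi2, Atg7 and Nbr1. The count over all tested genes rose from 2232 (19.6%) to 3857 (32.6%) in the same fit. That library, the smallest, was the highest of its group for 20 of the 38 genes and the lowest for 11. Leaving out 1 of the other 5 libraries gave 2 or 3 called genes (5.26% or 7.89%), where 6.07% to 10.3% of all tested genes were called. Without both libraries that stood apart, a choice made after seeing the data, 8 genes (21.1%) were called, against 25.6% of all tested genes. Spread of scaled CPM was larger between the Ahrr-deficient libraries. The median coefficient of variation over the 38 genes was 8.6% (0.8% to 25%) against 4.7% in wild-type (0.4% to 25.3%). These values include counting error, which is largest in the smallest library, Ahrr-deficient replicate 1, with as few as 22 counts for a gene. How much of the difference comes from depth was not tested.

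Levels were compared between genes per kb of the longest principal transcript in the annotation. The median over the 38 genes was 15.2 scaled CPM per kb in wild-type cells, from 1.42 ± 0.0939 for Atg16l2 to 317 ± 20.7 for Gabarap (SD, n = 3). Second was Sqstm1 with 208 ± 13.2. Tax1bp1, Map1lc3b, Gabarapl1 and Atg7 followed at 62.9 ± 2.58, 61.7 ± 2.59, 56.7 ± 8.13 and 55.7 ± 1.67, differences within their SDs for neighbours in this order. Nbr1 came next with 43.2 ± 1.68. Among the genes called lower, Calcoco1 had 29.5 ± 0.511, Atg2a 28.3 ± 1.30 and Ulk1 15.1 ± 0.135 scaled CPM per kb, and of those called higher Atg3 had 27.2 ± 0.585 and Atg5 24.8 ± 1.01. The order depends on the length used: per kb of all annotated exons merged, Tax1bp1 and Map1lc3b were at 20.7 and 20.8 and Gabarapl1 at 51.3.

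**Figure D3:**
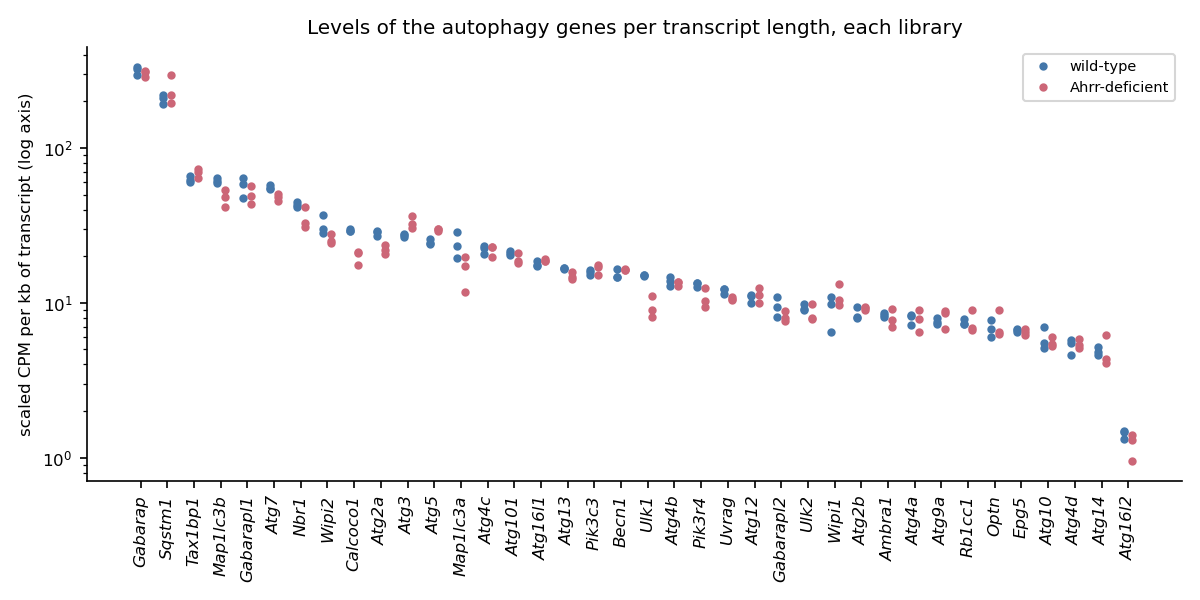
Level per transcript length of the 38 autophagy genes (y axis, scaled CPM per kb on a log axis) in each wild-type and Ahrr-deficient library, ordered by the wild-type mean. Gabarap and Sqstm1 are highest in both genotypes and Atg16l2 is lowest, and the genotypes lie close together for most genes.

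Log2 fold changes were related to the GC content of the transcripts, over the 38 genes (Spearman rho -0.50) and over 11394 tested genes (-0.28). Genes are not independent replicates and share the libraries, so these are descriptions. The 4 genes called lower had GC contents of 51.5% to 60.0% and the 2 called higher 40.1% and 44.6%, in a range of 39.1% to 63.1% over the 38 genes. With offsets that remove the trend in each library the rho was -0.07 over the 38 genes. Ulk1 was then at -0.56 (adjusted p 0.0301 by edgeR), Calcoco1 at -0.43 (0.0296) and Map1lc3b at -0.35 (0.0443), all still past the threshold, and Atg2a, Atg3 and Atg5 were not. With the replicate number added as a block to these offsets Map1lc3b lost its call (-0.34, adjusted p 0.053), while Ulk1 and Calcoco1 kept theirs. In the pairs of relatives compared above, GC content differed for Ulk1 and Ulk2 (58.0% and 47.0%), Atg2a and Atg2b (60.0% and 50.3%) and Calcoco1 and Tax1bp1 (57.7% and 39.6%). It was close for Map1lc3b and Gabarap (51.5% and 50.8%) and for Wipi1 and Wipi2 (51.7% and 52.2%).

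**Figure D4:**
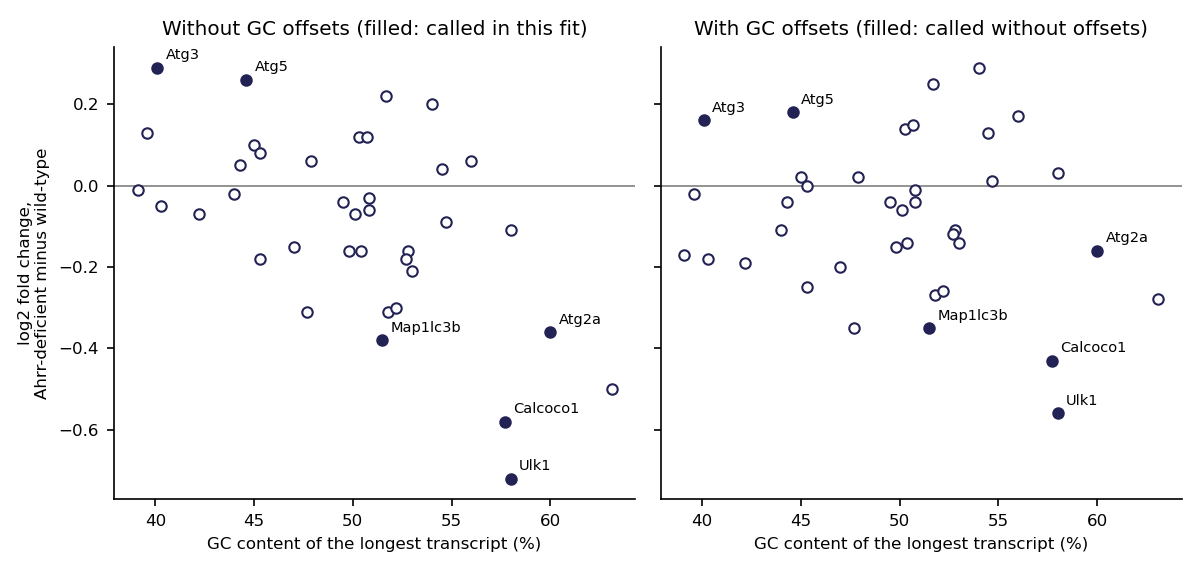
Log2 fold change of the 38 autophagy genes (y axis) against the GC content of the longest transcript in percent (x axis), without GC offsets (left) and with them (right). Filled points are the 6 genes called without offsets; the rank correlation is -0.50 on the left and -0.07 on the right, and Ulk1 and Calcoco1 are the lowest points on the right.

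Genes around the machinery were taken from 5 further lists: other selective receptors, membrane growth and fusion, upstream signals and transcription factors, lysosomal genes, and the NADPH oxidase of LC3-associated phagocytosis. Together 31 of 123 tested genes (25.2%) passed the threshold, 9 higher and 22 lower, against the 19.6% of all tested genes. With GC offsets it was 24 genes, 11 higher and 13 lower, where 17.7% of all tested genes passed. With the replicate block it was 19, where 12.2% of all tested genes passed. With a library left out it was between 7, without wild-type replicate 1 (6.07% of all tested genes), and 48, without Ahrr-deficient replicate 1 (32.6%). Over the same left-out libraries the counts were 0 to 6 for other receptors, 2 to 7 for membrane growth and fusion, 2 to 10 for upstream signals and 0 to 4 for the NADPH oxidase. Of the 18 tested genes of other receptors 2 (11.1%) were lower and 0 higher, with a median log2 fold change of 0.02. Pink1, the kinase that marks damaged mitochondria, had 96.8, 93.9 and 82.5 scaled CPM in wild-type and 72.4, 46.9 and 52.6 in Ahrr-deficient replicates, a log2 fold change of -0.71 (SE 0.15, adjusted p 0.014 by edgeR). That call was lost with GC offsets (-0.53, adjusted p 0.0855, the highest over the alternative settings), with these and the block together (0.0639) and without wild-type replicate 1 (0.0718) or 2 (0.0544) or Ahrr-deficient replicate 3 (0.0615).

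Of 25 tested genes of membrane growth and fusion, 2 rose and 4 fell (24.0% called, against 19.6% of all tested genes), with a median of 0.06. Snap29 encodes a SNARE of the autophagosome that takes part in fusion with lysosomes. It had 91.2, 86.0 and 95 scaled CPM in wild-type and 163, 176 and 173 in Ahrr-deficient replicates, a wide separation, with a log2 fold change of 0.91 (SE 0.08, adjusted p 6.59e-04 by edgeR). It passed in all 16 alternative settings, from 0.84 to 0.94, and its change was larger than that of any of the 38 genes. Tecpr1, a tether between autophagosomes and lysosomes, had 442, 413 and 384 against 289, 281 and 294 scaled CPM, a log2 fold change of -0.52 (SE 0.09, adjusted p 0.00716 by edgeR) that was lost only with GC offsets and the replicate block together (adjusted p 0.0525). Wdr45, a relative of the WIPI proteins, fell by 0.58 (adjusted p 0.0125 by edgeR) and Zfyve1, which marks the sites of autophagosome formation, by 0.41 (0.0333) on the log2 scale. The call of Wdr45 was lost without wild-type replicate 1 (0.068) or 2 (0.0532) or Ahrr-deficient replicate 2 (0.0584), with thinning to the smallest total (0.0812) and with GC offsets and the block together (0.0643). That of Zfyve1 was lost with GC offsets (0.0529), with the replicate block (-0.39, 0.0575), with both together (0.0707) and without wild-type replicate 1 (0.155) or 2 (0.109) or Ahrr-deficient replicate 2 (0.115) or 3 (0.102).

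Of 32 tested genes of upstream signals and transcription factors, 3 rose and 4 fell (21.9% called, against 19.6% of all tested genes), with a median of 0.00. Both Tfec and Mitf encode factors of the MiT/TFE family, some members of which drive lysosomal and autophagy genes. Tfec had 81.0, 59.7 and 69.5 scaled CPM in wild-type and 126, 182 and 166 in Ahrr-deficient replicates, a log2 fold change of 1.17 (SE 0.15, adjusted p 0.00261 by edgeR). Mitf had 84.2, 92.5 and 79.8 against 117, 137 and 120, a log2 fold change of 0.55 (SE 0.09, adjusted p 0.00644 by edgeR). Both passed in all 16 alternative settings. The other members of that family, Tfeb and Tfe3, had log2 fold changes of 0.07 and 0.02 (edgeR adjusted p 0.745 and 0.899); they lie outside the naming rule and were chosen after their values were seen. Sesn1, a stress-induced inhibitor of mTORC1, fell by 0.59 on the log2 scale (adjusted p 0.0279 by edgeR). Its call was lost without wild-type replicate 1 (0.133) or 3 (0.101) or Ahrr-deficient replicate 2 (0.115) or 3 (0.084), with the replicate block (-0.52, 0.0568), with the block and GC offsets (0.0571) and with thinning to the smallest total (-0.43, 0.238). Trib3, an inhibitor of AKT, had 12.9, 14.4 and 4.11 scaled CPM in wild-type and 8.63, 91.7 and 48.2 in Ahrr-deficient replicates. The groups overlapped at Ahrr-deficient replicate 1, and its log2 fold change of 2.33 (SE 0.63, adjusted p 0.0338 by edgeR) passed in 6 of the 16 alternative settings. With a library left out it passed only without Ahrr-deficient replicate 1, and it was 1.57 (adjusted p 0.123) without Ahrr-deficient replicate 2.

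Of 41 tested lysosomal genes 14 (34.1%, against 19.6% of all tested genes) passed the threshold, 3 higher and 11 lower, with a median of -0.03. The count was 9 with GC offsets (3 higher, 6 lower), 8 with the replicate block and 4 with both (2 higher, 2 lower). In these fits 17.7%, 12.2% and 11.2% of all tested genes passed, in the same order. The lysosomal count was 3 without wild-type replicate 1 (6.07% of all tested genes), 5 without wild-type replicate 2 (8.15%) and 6 without wild-type replicate 3 (9.35%). It was 6 without Ahrr-deficient replicate 3 (10.3% of all tested genes), 7 without Ahrr-deficient replicate 2 (8.31%) and 21 without Ahrr-deficient replicate 1 (32.6%). The protease gene Ctsb had 9196, 9878 and 8154 scaled CPM in wild-type and 6435, 4879 and 4997 in Ahrr-deficient replicates, a log2 fold change of -0.74 (SE 0.15, adjusted p 0.0103 by edgeR). Ctsl, of the same protease family, went the other way with 941, 1053 and 758 against 1465, 1682 and 1344, a log2 fold change of 0.71 (SE 0.15, adjusted p 0.0142 by edgeR). Neither gene overlapped between groups. Single left-out libraries ended both calls: for Ctsb wild-type replicate 1 (0.0668) or 2 (0.0544) or Ahrr-deficient replicate 3 (0.065), and for Ctsl wild-type replicate 1 (0.0621) or 3 (0.0517) or Ahrr-deficient replicate 2 (0.0505). Ctsf, a further cathepsin gene, fell by 0.57 (adjusted p 0.0124 by edgeR), a call lost without wild-type replicate 1 (0.0569) and with GC offsets and the block together (0.0616).

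In the NADPH oxidase list 2 of 8 genes passed the threshold, 1 higher and 1 lower, with a median of -0.06. Of all tested genes 19.6% passed. With GC offsets 1 of the 8 passed, where 17.7% of all tested genes did. Ncf1, the gene of the cytosolic oxidase subunit p47phox, had 528, 530 and 570 scaled CPM in wild-type and 794, 724 and 736 in Ahrr-deficient replicates, a log2 fold change of 0.47 (SE 0.10, adjusted p 0.0148 by edgeR). Without wild-type replicate 1 its adjusted p was 0.0846. Ncf4 (p40phox) had 49.5, 56.5 and 44.1 against 38.4, 35.5 and 30.0, a log2 fold change of -0.54 (SE 0.13, adjusted p 0.0195 by edgeR). Its call was lost with GC offsets (-0.42, adjusted p 0.0754), with these and the block together (0.0548) and without wild-type replicate 1 (0.0786) or 2 (0.0695) or Ahrr-deficient replicate 2 (0.0506) or 3 (0.0695).

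**Figure D5:**
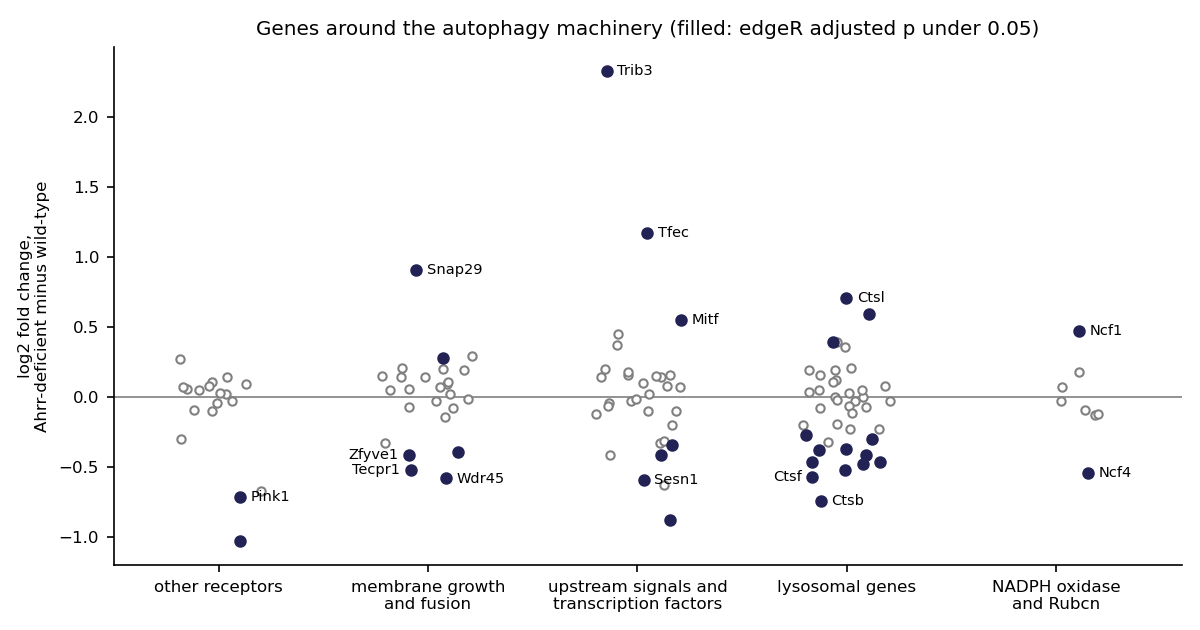
Log2 fold change (y axis, Ahrr-deficient minus wild-type) of the tested genes of 5 lists around the autophagy machinery (x axis; points spread sideways for legibility), filled where the edgeR adjusted p is under 0.05. Trib3 (2.33), Tfec (1.17) and Snap29 (0.91) are the highest labelled points, and 22 of the 31 filled points lie below 0.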

How the data were processed

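RNA-seq counts of 6 libraries were compared. The authors deposited raw read counts for 53465 features without identifiers, and a normalised signal, counts divided by a size factor, for 16111 genes with identifiers, per the file headers. The deposited signal times median-of-ratios size factors gave whole counts for 100% of values (tolerance 1e-06 reads), equal as a set to the raw counts with a total of at least 10. These reads were used, and features without an identifier held at most 0.0511% of a library. The submitters' processing notes name mm10, CASAVA 1.8.2, fastp 0.20.0, STAR 2.7.10b, SAMtools 1.16.1, R 4.3.1 and DESeq2 1.40.2. The counting program, its annotation and its use of strand are not given in the sources used here. Identifiers of 16094 genes matched GENCODE M21 (GRCm38), the source of coordinates, transcript lengths, GC contents and shared 75-base words. Promoter windows are from RefSeq (GRCm38.p6).

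Counts were tested with edgeR 4.0.16 (quasi-likelihood, TMM, filterByExpr, two-sided) in R 4.3.3, with Benjamini-Hochberg adjustment over 11408 genes. A gene was called at an adjusted p under 0.05. The SE is the log2 fold change divided by the root of F. The common biological coefficient of variation was 13%, and scripts were tested on simulated counts. Replicates of a group differed by more than sampling noise (chi-square per degree of freedom 5.79 or more). The value was 175.07 for wild-type replicates 1 and 2, 70.01 for 2 and 3, and 5.79 for 1 and 3. Among Ahrr-deficient replicates it was 10.66 to 17.21. Ratios of related genes were tested with an exact permutation test (SciPy 1.17.1). A count of 0 would allow up to 3 counts, or 0.072 to 0.844 CPM by library, for counting error only.

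The genes and lists were chosen with earlier results of these data known. Named in full were the genes past the threshold, those that changed side of it when a library was left out, and Sqstm1, Becn1, Atg7 and Gabarap. From each further list the 4 genes past the threshold with the largest change and a mean of at least 50 counts were named, and Ahrr as the targeted gene. One gene that this rule names is not reported here. Alternatives were RLE and upper-quartile factors, no filter, a minimum mean of 50 counts, the replicate number as a block, DESeq2 1.42.0, limma-voom (limma 3.58.1), thinning to the smallest total, GC offsets (lowess span 0.3) without and with the block, and leaving out each library. A fit without both libraries that stood apart was added after seeing the data.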

Additional observations from a re-analysis of the deposited data

How the results depend on the processing

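Ulk1 and Calcoco1 kept their call and direction in all 16 alternative settings. The 38 autophagy genes gave 4 to 7 calls in the alternatives that used all libraries, except 2 with GC offsets and the replicate block together, and 2 to 10 with a library left out. Over all tested genes the same fits called 11.6% to 24.1%, 11.2% and 6.07% to 32.6%, in the same order. The median log2 fold change of the 38 genes stayed between -0.10 and -0.05. Same-numbered libraries deviated with correlations of -0.17, 0.072 and 0.129, and differently numbered ones with -0.215 to 0.163. With 3 libraries per genotype these values cannot decide whether the numbers pair the libraries. The block was therefore kept as an alternative. The replicate block gave 4 calls among the 38 genes, 1390 over all genes and 19 in the further lists. GC offsets with the block gave 1276 and 10. Thinning to the smallest total gave 1197 calls over all genes. With a library left out there were 694 to 3857 calls over all genes, the highest without Ahrr-deficient replicate 1 and the lowest without wild-type replicate 1, and 7 to 48 in the further lists, with the same libraries at the ends. The cause of these changes was not tested, beyond the smaller number of libraries or reads by construction. Upper-quartile factors put 41.8% of calls on the higher side, against 49.1% with TMM.

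Direction reversed in 31 values of 15 uncalled genes, none above 0.30 in size, with adjusted p of 0.393 or more; the cause was not tested. With GC offsets, and with the block added, Ambra1 was at 0.01 and 0.02, Atg101 at 0.03 and 0.04, Atg12 at -0.04 in both and Tax1bp1 at -0.02 in both. Thinning gave 0.30 for Atg10, -0.04 for Atg16l1, 0.02 for Atg4b, 0.08 for Atg4c and -0.07 for Atg4d. With libraries left out (1, or both that stood apart), ranges that crossed 0 were -0.12 to 0.07 for Atg10, -0.06 to 0.13 for Atg12, -0.22 to 0.05 for Atg14, -0.18 to 0.04 for Atg4a, -0.09 to 0.03 for Atg4b, -0.07 to 0.05 for Atg4c, -0.04 to 0.08 for Atg4d, -0.03 to 0.19 for Atg9a, -0.07 to 0.01 for Epg5, -0.12 to 0.24 for Optn and -0.14 to 0.07 for Rb1cc1. Depth limited Ahrr-deficient replicate 1 most, with 22 counts for the lowest of the 38 genes against 374 in Ahrr-deficient replicate 2.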
